A study of Mus musculus with 24 samples.

Results

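The 10 genes described here encode the transporters, channels and pumps through which the colon absorbs and secretes salt, short-chain fatty acids and water, namely Slc26a3, Slc5a8, Atp12a, Scnn1a, Scnn1b, Scnn1g, Slc12a2, Best2, Aqp8 and Aqp4. A Cdx2 site was counted for a gene when the summit of a deposited Cdx2 peak lay in the gene body or within 50 kb to either side of it, on the mm10 genome with the GENCODE vM21 annotation. Overlapping peaks of different libraries (1 bp or more in common) were joined into regions, and 50 of the 61454 regions of the series met this rule. Within a gene, sites are numbered along the chromosome. Of the 50 sites, 37 were called in at least 2 libraries and 13 in a single library, and no site was shared by 2 of the genes.

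Cdx2 binding was measured by ChIPmentation, in which a transposase inserts the sequencing adapters while the immunoprecipitated chromatin is still held on the beads. The material was colon organoids, epithelial cultures grown from the first 1.0 cm of the proximal colon or the last 1.0 cm of the descending (distal) colon of female mice of 8 weeks. All groups carried, each as 1 copy, a Cre-inducible BrafV600E allele (B6.129P2(Cg)-Braftm1Mmcm/J) and the Cre-dependent red reporter t(ROSA)26Sortm9(CAG-tdTomato)Hze/J of a B6;129S6 strain. They came from a cross of the 2 strains, and the labels of these samples name no Cre treatment. Segments, sex, age and genotype are given as in the study's passage on organoid culture. Its passage on the Cdx2 ChIP-seq does not repeat them. Cultures were 4 months old and had grown in WENR-plus medium with the niche factors Wnt3a, EGF, Noggin and R-spondin 1. For WENR-minus samples, organoids had 2 days in WENR-plus medium after plating and 3 more days in medium from which the factors were left out. Each combination of colon site and medium had 3 Cdx2 libraries, 12 in all, and the same replicate number at 1 colon site was read as 1 organoid line, which gives 6 lines. The 12 input libraries were not analysed here other than as the control of the authors' peak calls.

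Cdx2, a homeobox factor that sets intestinal identity, binds AT-rich DNA around the core TTTAT. Surface colonocytes take up chloride through Slc26a3 in exchange for bicarbonate, sodium through the epithelial sodium channel ENaC, and short-chain fatty acids through Slc5a8, and water follows the salt through the epithelium and its water channels. Crypt cells secrete chloride that enters from the blood side through Slc12a2. Electrogenic sodium uptake by ENaC is known mainly from the distal colon, where the hormone aldosterone raises it.

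The sequences below show the summit of the strongest site of each gene that was called in at least 9 libraries, since these were the most widely called summits of the genes. The strongest site is the one with the highest mean fold percentile over the 12 libraries, explained below, with a library that lacks the site counted as 0. They are from the plus strand of GRCm38 as given by RefSeq, the same assembly as mm10, and run over 50 bases to either side of the median summit. For Aqp8, whose window runs into the first exon, only a stretch of 30 bases around the motif is shown. That stretch holds the start of the gene but not the median summit. Capitals mark matches to TTTATGA, or TTTATGG, or TTTATTA, or TTTATTG on either strand, the motif searched here.
Scnn1g site 1, chr7:121691923-121692023: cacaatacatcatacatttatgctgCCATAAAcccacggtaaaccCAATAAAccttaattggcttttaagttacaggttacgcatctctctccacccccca
Atp12a site 3, chr14:56325158-56325258: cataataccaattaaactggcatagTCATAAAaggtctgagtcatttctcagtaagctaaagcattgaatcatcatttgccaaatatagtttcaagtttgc
Slc5a8 site 2, chr10:88861543-88861643: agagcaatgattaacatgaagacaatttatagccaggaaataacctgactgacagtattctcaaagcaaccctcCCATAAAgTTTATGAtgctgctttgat
Slc26a3 site 5, chr12:31438022-31438122: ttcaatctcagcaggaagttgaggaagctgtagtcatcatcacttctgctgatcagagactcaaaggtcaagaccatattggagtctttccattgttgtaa
Scnn1a site 8, chr6:125323043-125323143: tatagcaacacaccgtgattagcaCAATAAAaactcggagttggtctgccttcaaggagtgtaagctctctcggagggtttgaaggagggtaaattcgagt
Best2 site 1, chr8:84989499-84989599: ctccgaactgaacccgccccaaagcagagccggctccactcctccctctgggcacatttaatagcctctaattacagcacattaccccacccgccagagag
Aqp8 site 8, chr7:123462272-123462301: cacctcccattcgggcTTTATTGctttctg

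In Scnn1g site 1 the nearer of its motifs was centred 2 bp from the summit, and in Slc5a8 site 2 a pair of motifs on opposite strands was separated by 1 base. The windows of Slc26a3 site 5 and Best2 site 1 held none of these letters. Over the 50 sites, 24 held the motif within 50 bp of the summit (48%, 95% Wilson interval 34.8% to 61.5%), against 60.4% of all 61454 regions and 11.7% of windows placed 1000 bp to either side of the summits. Of the 13 sites called in 1 library, 4 held the motif (30.8%), compared with 51.7% of all regions called in 1 library. Among the 37 sites called in at least 2 libraries the share was 54.1%, and 66.7% of all such regions held it. The intervals cover counting error only. In the RefSeq promoter sequences (250 bases before to 50 after a start site), 5 of the 10 genes had an entry. The promoters of Aqp8, Scnn1g and Slc5a8 held the motif and those of Scnn1b and Slc26a3 did not, while 14.4% of all 32851 promoters of that table did. A promoter motif did not mean a Cdx2 site there. Scnn1g and Slc5a8 had no site within 3 kb of a start, and Slc26a3 site 5, called in all 12 libraries, had its summit in the Slc26a3 promoter.

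The genes differed widely in how many Cdx2 sites surrounded them. Slc26a3 had 10 sites, Aqp8 and Scnn1a had 8 each, Aqp4 and Slc12a2 had 5 each, Atp12a and Slc5a8 had 4 each, Scnn1b had 3, Scnn1g had 2 and Best2 had 1. The median was 4.5 sites per gene, or 3.11 sites per 100 kb of window, and for all 21938 protein-coding genes it was 2 sites, or 1.88 per 100 kb. A list of 37 other colonic ion, water and short-chain fatty acid transport genes and their regulators had a median of 4 sites, or 2.77 per 100 kb. For their window lengths Aqp8 (7.57 sites per 100 kb) and Scnn1a (6.44 per 100 kb) were the most densely occupied of the 10 genes, and Best2 (0.932 per 100 kb) the least.

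**Figure D1:**
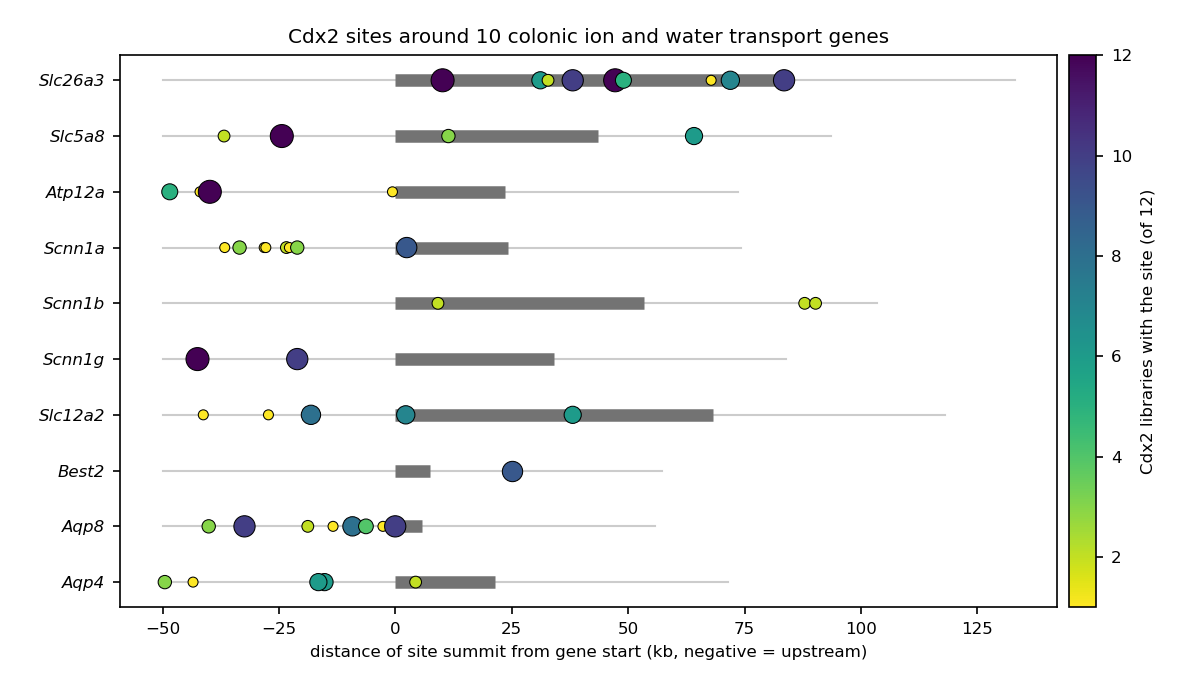
Position of the 50 Cdx2 sites relative to the annotated gene start (x axis, kb along the gene's direction, negative values upstream), 1 row per gene; thick grey bars are gene bodies, thin lines the windows of 50 kb, and the colour and size of a circle give the number of the 12 libraries with the site. The 5 sites in all 12 libraries lie at Slc26a3 (2 sites), Slc5a8, Atp12a and Scnn1g, while all 3 sites of Scnn1b were in 2 libraries.

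Most sites were away from the start of the gene. Upstream of the gene lay 30 of the 50 sites, in the gene body 15 and past its end 5. By class, 13 sites were in a promoter, defined as within 3 kb of the start of a transcript of any gene, 17 in an intron, 1 in an exon and 19 between genes. Within 3 kb of a start site of one of the 10 genes lay 9 sites, at Slc26a3 (3 sites), Aqp8 (2), Scnn1a, Slc12a2, Atp12a and Aqp4. At 21 sites the nearest start site belonged to another gene, and a site in the window of a gene need not act on that gene. The window limit mattered for Aqp4, where a site 50.9 kb from the gene body fell outside it although 11 libraries had called it, while one at 49.5 kb with 3 libraries fell inside.

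Of the 50 sites, 5 were called in all 12 libraries (10%), at 4 of the 10 genes, and 3.38% of all regions were. A further 5 sites were called in 10 libraries. At least 1 site in all 12 libraries was also found at 13 of the 37 genes of the wider list (35.1%) and at 12.9% of all protein-coding genes. Since each list was called against the depth and input of its own library, the height of a peak is given below as the percentile of its fold enrichment within the list of that library, where 100 is the highest fold. The lists themselves give no read totals, and the library totals in the study's supplement were not used here.

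The lists held 5608 to 42192 peaks. Longer lists held more sites of these genes in part of the libraries only: the longest held the most sites (31), but lists of 21040 and 15940 peaks held 20 and 17, and one of 13371 peaks held 25. In replicates 1, 2 and 3, 27, 31 and 22 of the 50 sites were called in proximal and 10, 25 and 15 in distal WENR-plus libraries. In WENR-minus medium 28, 17 and 21 sites were called in proximal and 20, 14 and 16 in distal libraries. More proximal than distal libraries had the site at 30 of the 50 sites, fewer at 12, and the numbers were equal at 8. When every list was cut to its 5608 strongest peaks by p-value, the group means were 8.67 ± 2.08 sites in proximal and 10.7 ± 3.79 in distal WENR-plus libraries, and 7.67 ± 4.04 in proximal and 8.67 ± 3.51 in distal WENR-minus libraries (SD, n = 3 each). The excess of proximal sites was thus not seen at equal list length. In these shortened lists 21 of the 50 sites were left in at least 1 library and 0 in all 12.

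**Figure D2:**
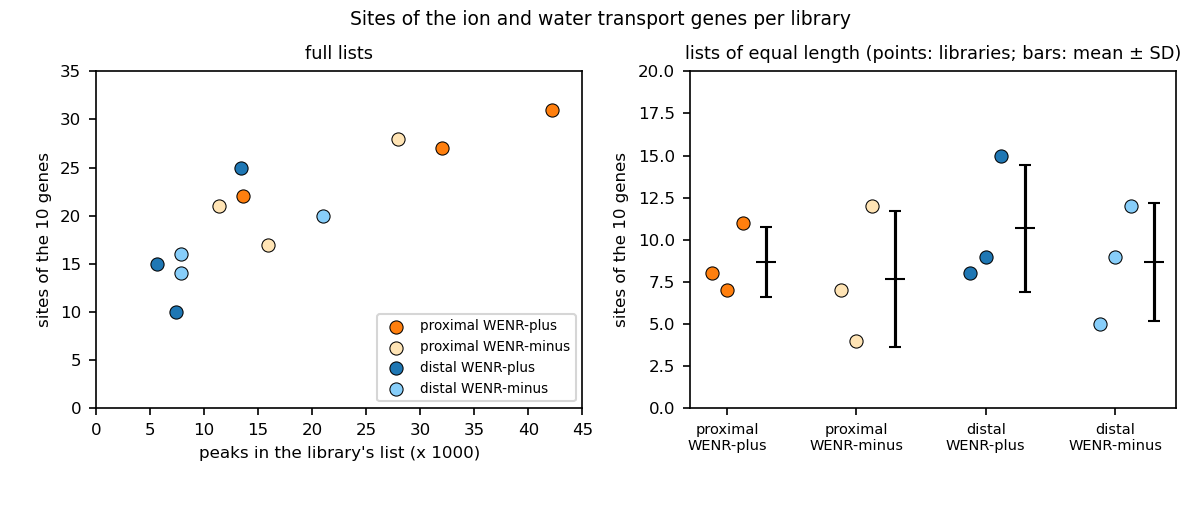
Number of the 50 sites called in each library against the length of its peak list (left, peaks x 1000) and after every list was cut to 5608 peaks (right, points are libraries, bars the mean ± SD of 3). The distal WENR-plus library with 10 sites and the proximal WENR-plus library with 31 sites are the extremes on the left, while on the right the groups overlap.

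The presence of each region was compared between the 6 proximal and 6 distal libraries, and between the 6 WENR-plus and 6 WENR-minus libraries, by a two-sided Fisher's exact test over the 35518 regions called in at least 2 libraries. The smallest p this test allows is 0.00216, and 0 regions passed a Benjamini-Hochberg adjusted p of 0.05 (lowest adjusted p 0.114 for colon site and 1 for medium). Sites are therefore described below at an unadjusted p under 0.05, which 1861 regions reached for colon site and 67 for medium. For colon site the 2 libraries of 1 line fall on the same side and are not independent, which makes those p-values too small. For medium they fall on opposite sides, and this test leaves that pairing out. By the unadjusted rule 3 of the 37 sites were more often called in proximal libraries, where 4.96% of all regions tested were. In distal libraries 1 site was more often called, where 0.282% of all regions tested were. For medium, 1 site was more often called in WENR-plus libraries (0.127% of all regions) and 0 in WENR-minus libraries (0.0619%). With 0 to 3 sites in a direction, no more is read from these counts.

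At the sites in all 12 libraries the fold percentile itself was compared over the 2079 regions of that kind. Medium was tested by the exact sign-flip permutation test over the differences of the 6 lines (smallest p 0.03125), and colon site by the exact permutation test of 3 proximal against 3 distal lines (smallest p 0.1). None of the 5 sites reached p under 0.05 for medium, while 3.94% of the 2079 regions did with a higher percentile in WENR-plus and 2.21% with a higher one in WENR-minus medium. The lines of the colon sites did not overlap at 2 of the 5 sites, both higher in proximal organoids, and they did so at 28.1% of all 2079 regions, with 2.21% higher in distal organoids. After adjustment 0 regions passed in either comparison (128 at an unadjusted p under 0.05 for medium, and 0 for colon site, where the design allows none).

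**Figure D3:**
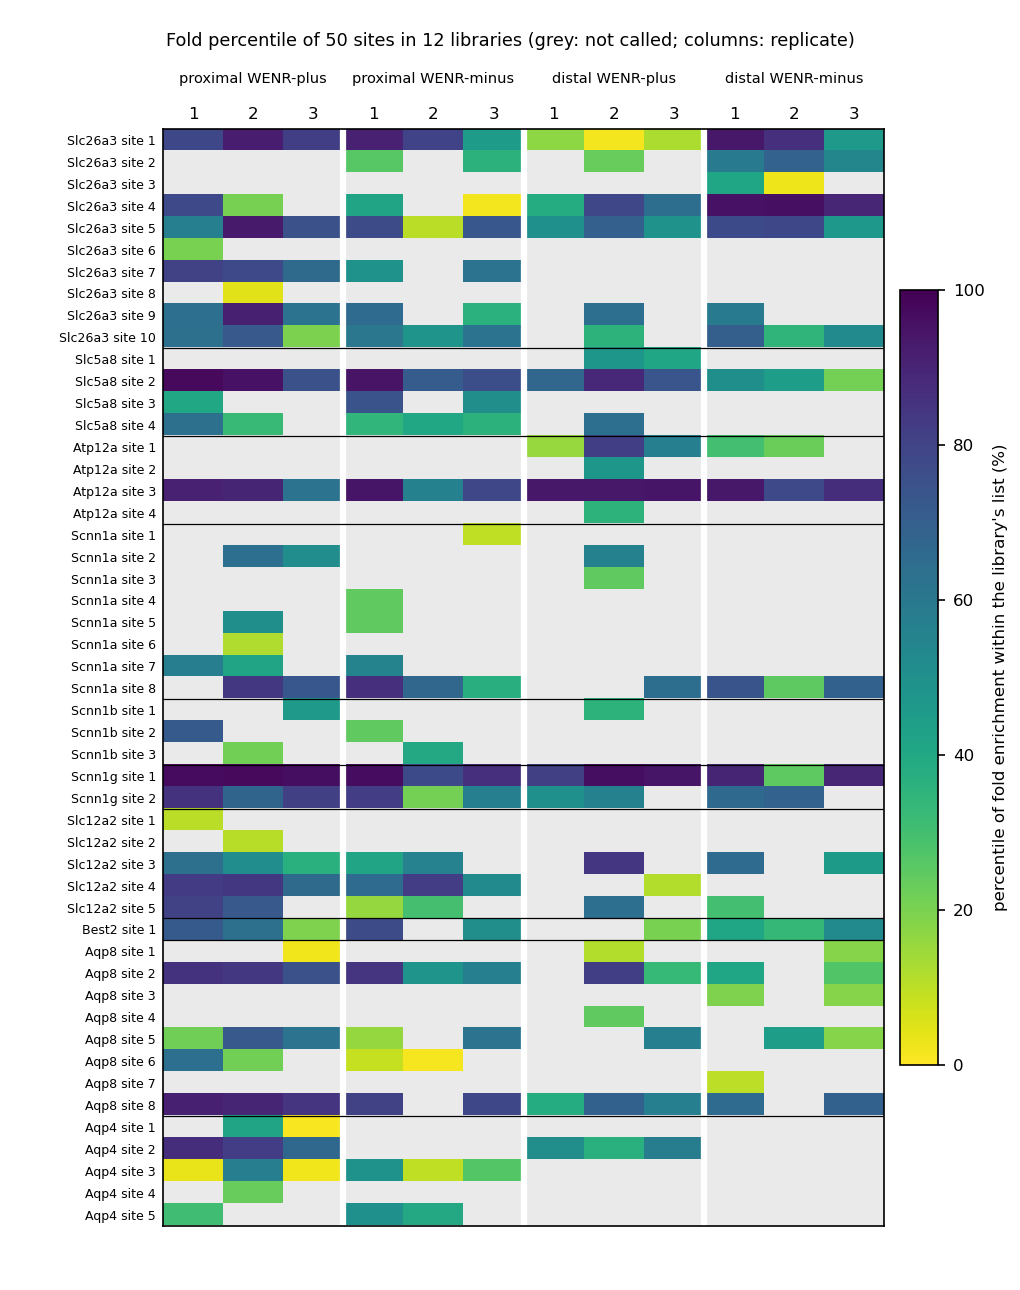
Percentile of fold enrichment of each of the 50 sites (rows, grouped by gene) within the peak list of each of the 12 libraries (columns, replicates 1 to 3 of the 4 groups), with grey where no peak was called. Aqp4 site 2 is filled in all 6 WENR-plus and in none of the 6 WENR-minus libraries, and Atp12a site 1 in distal libraries only.

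Slc26a3, the apical chloride and bicarbonate exchanger of surface colonocytes, had the most sites and held 2 of the 5 sites in all 12 libraries. Its site 5 (chr12:31437523-31438338) lay 0.145 kb upstream of a start site that is internal in GENCODE, 47.2 kb past the first annotated start. The RefSeq promoter of Slc26a3, chr12:31437969-31438268, covers the median summit of site 5. Sites 1 to 4, in the gene body by GENCODE, lay upstream of that RefSeq promoter. Site 5 is the only one of the 9 promoter sites of the 10 genes that every library called. The fold percentiles of replicates 1, 2 and 3 were 56.8, 92.9 and 75.1 in proximal WENR-plus and 77.0, 10.5 and 72.7 in proximal WENR-minus libraries. In distal organoids they were 49.7, 69.3 and 49.2 in WENR-plus and 77.6, 78.2 and 46.8 in WENR-minus medium. Proximal WENR-minus replicate 2 was far below the other libraries, and all groups overlapped. WENR-plus exceeded WENR-minus by 5.02 ± 39.8 percentile points over the 6 lines (SD, exact permutation p = 0.906), and proximal exceeded distal lines by 2.34 points (exact permutation p = 0.7).

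The other Slc26a3 site in all 12 libraries, site 1, was in an intron 10.1 kb past the first annotated start (chr12:31400646-31401460) and had no motif within 50 bp. Its percentiles were 78.3, 92.5 and 81.6 in proximal WENR-plus libraries and 90.7, 79.8 and 44.6 in proximal WENR-minus libraries. In distal organoids they were 16.8, 1.93 and 12.3 in WENR-plus medium and 93.7, 86.5 and 45.9 in WENR-minus medium. The 3 distal WENR-plus libraries were thus the lowest of the 12, and each distal line was higher without the niche factors. The effect of medium, WENR-plus minus WENR-minus, averaged 12.4 points in proximal and -65.0 points in distal lines, a difference of 77.4 points (exact permutation p = 0.1, the smallest p possible). This contrast was not one of the planned comparisons, and the share of the 2079 regions that reach this p was not taken. At Scnn1g site 1, Slc26a3 site 5 and Atp12a site 3 it was -12.6, 33.0 and -3.13 points (exact permutation p = 0.9, 0.5 and 0.9). Over all 6 lines the medium difference at Slc26a3 site 1 was -26.3 ± 48.4 points (SD, exact permutation p = 0.312). Line means were 77.9 ± 12.8 in proximal and 42.9 ± 13.1 in distal organoids (SD, n = 3 each, exact permutation p = 0.1). Ranked among the 2079 regions in all 12 libraries alone, the proximal excess was 2.18 points and the lines overlapped (exact permutation p = 0.8).

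Site 7 of Slc26a3, an intronic site with a motif 1.62 kb past a start of the gene, was called in 5 proximal and 0 distal libraries (Fisher's exact p = 0.0152, adjusted p = 0.289). Its percentiles were 80.3, 77.8 and 65.5 in proximal WENR-plus libraries and 49.0 and 62.0 in proximal WENR-minus replicates 1 and 3. Of these 5 peaks 2 remained in lists of equal length, where the difference from 0 distal libraries no longer reached p under 0.05 (Fisher's exact p = 0.455). Site 6 at the same start (1.04 kb past it) was called in 1 proximal WENR-plus library only, at percentile 20.1.

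Values of a pair of further Slc26a3 sites, chosen after they were seen, are given without a call for colon site in the full lists. Site 4, 9.26 kb upstream of the nearest start of the gene and with a motif, was called in 4 proximal and 6 distal libraries (Fisher's exact p = 0.455). Its percentiles were 95.2, 95.8 and 89.4 in distal WENR-minus and 38.0, 78.7 and 63.8 in distal WENR-plus libraries, and 78.0, 20.4, 41.6 and 1.63 in the 4 proximal libraries, the highest of which was above 2 of the distal WENR-plus values. With lists cut to one length it had 0 proximal and 6 distal libraries (Fisher's exact p = 0.00216, unadjusted). The share of all regions more often called in distal libraries at that length was not taken, so no more is read from this p. Site 2 was called in 5 WENR-minus libraries, among them all 3 distal ones (percentiles 58.3, 68.6 and 54.2) and proximal replicates 1 and 3 (25.8 and 35.7), and in 1 distal WENR-plus library at percentile 23.1 (Fisher's exact p = 0.0801 for medium). For colon site it had 2 proximal and 4 distal libraries (Fisher's exact p = 0.567). The remaining sites of the gene were called in 1 to 10 libraries.

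Slc5a8, the sodium-coupled transporter that takes up short-chain fatty acids such as butyrate, had its site in all 12 libraries 24.4 kb upstream of the start (site 2, chr10:88860962-88861910). In proximal organoids the percentiles were 97.3, 95.2 and 75.1 in WENR-plus and 94.8, 70.8 and 75.9 in WENR-minus libraries. In distal organoids they were 67.1, 88.6 and 73.6 in WENR-plus and 50.4, 44.4 and 20.8 in WENR-minus libraries. The distal WENR-minus libraries were the 3 lowest, below every other library. Proximal lines averaged 84.8 ± 10.4 and distal lines 57.5 ± 9.72 (SD, n = 3 each), without overlap, a difference of 27.3 points (exact permutation p = 0.1). By rank among the 2079 regions the difference was 15.7 points, with overlap (exact permutation p = 0.2). WENR-plus was higher in 5 of 6 lines, by 23.3 ± 21.8 points (SD, exact permutation p = 0.0625, adjusted p = 0.575), with 37.9 points in distal and 8.69 points in proximal lines (exact permutation p of the difference 0.2). Sites 1, 3 and 4 of Slc5a8 were called in 2, 3 and 6 libraries.

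**Figure D4:**
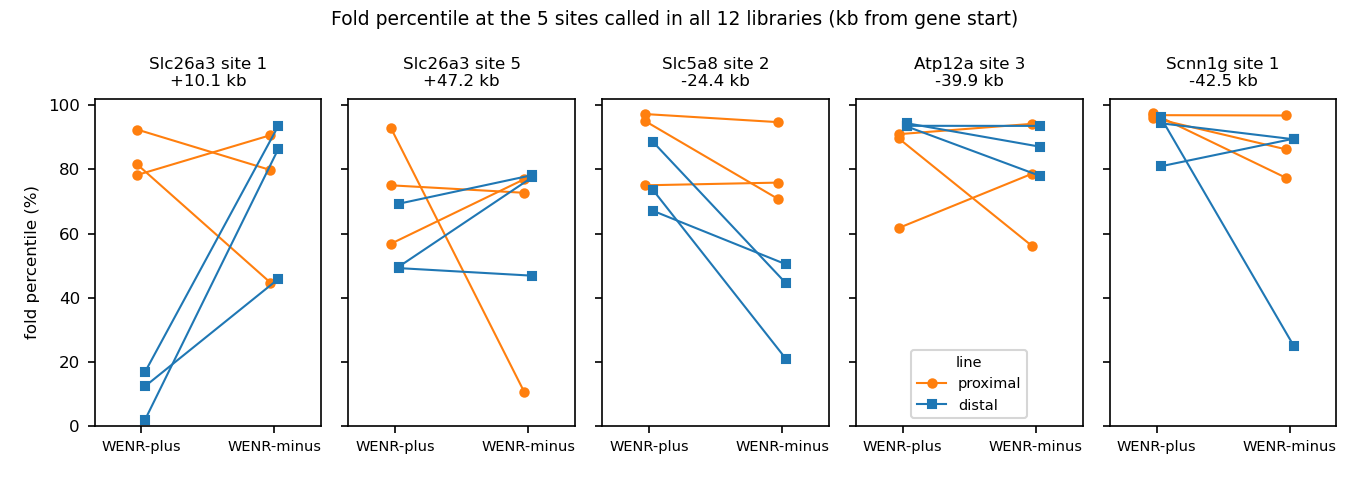
Fold percentile (y axis) at the 5 sites called in all 12 libraries, in WENR-plus and WENR-minus medium; each line joins the libraries of 1 organoid line, orange circles proximal and blue squares distal, and the kb value is the distance from the annotated gene start. At Slc26a3 site 1 the 3 distal lines rise from 16.8, 1.93 and 12.3 to 93.7, 86.5 and 45.9, and at Slc5a8 site 2 they end lowest.

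Atp12a encodes the catalytic subunit of the non-gastric proton and potassium pump. Its site 3, 39.9 kb upstream of the start and between genes (chr14:56324635-56325591), was among the strongest of the 50. The percentiles were 93.6, 93.4 and 94.4 in distal WENR-plus and 93.6, 78.0 and 87.1 in distal WENR-minus libraries. In proximal organoids they were 91.0, 89.7 and 61.7 in WENR-plus and 94.2, 56.1 and 78.7 in WENR-minus libraries. Distal lines averaged 90.0 ± 4.00 and proximal lines 78.6 ± 12.2 (SD, n = 3 each), with overlap (exact permutation p = 0.3). Distal was higher in all 3 pairs of lines with the same number (exact permutation p = 0.25, the smallest for 3 pairs). By contrast, the median of the 2079 regions in all 12 libraries was 7.03 points higher in proximal lines. Ranked among those 2079 regions alone, proximal lines lay below all distal lines (proximal minus distal -36.3 points, exact permutation p = 0.1). The 2.21% of regions higher in distal organoids, given above, is for percentiles within the list. No share of all regions was taken for the pairs or for this ranking. Medium differed by 6.04 ± 17.3 points (SD over 6 lines, exact permutation p = 0.469).

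The one site more often called in distal libraries by the unadjusted Fisher rule was also at Atp12a. This site 1, 48.5 kb upstream and without a motif, was called in 0 proximal and 5 distal libraries (Fisher's exact p = 0.0152, adjusted p = 0.289), and it lay close to the limit of the window. Its percentiles were 15.2, 81.5 and 56.7 in distal WENR-plus libraries and 29.8 and 22.6 in distal WENR-minus replicates 1 and 2. In lists of equal length, and with peaks of a −log10 q of at least 5 alone, it was left in 2 distal libraries (Fisher's exact p = 0.455 in both). Site 4, 0.632 kb upstream of the start, was called in distal WENR-plus replicate 2 only, at percentile 35.3.

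The subunits of ENaC, the amiloride-sensitive sodium channel, differed in their sites. At Scnn1g, which encodes the gamma subunit, site 1 had the highest median percentile of all 50 sites (92.0). It lay 42.5 kb upstream of the start, in an intron of Usp31, and the nearest start site was that of 1700069B07Rik at 15.1 kb (chr7:121691361-121692390). The percentiles of replicates 1, 2 and 3 were 97.0, 97.5 and 96.1 in proximal WENR-plus and 96.9, 77.4 and 86.3 in proximal WENR-minus libraries. In distal organoids they were 81.0, 96.4 and 94.4 in WENR-plus and 89.6, 24.9 and 89.4 in WENR-minus libraries. Distal WENR-minus replicate 2 at 24.9 stood apart from the other 11 libraries, which began at 77.4. Medium differed by 16.3 ± 28.7 points (SD over 6 lines, WENR-plus higher in 5 of 6, exact permutation p = 0.156) and colon site by 12.6 points (exact permutation p = 0.3). Site 2 of Scnn1g, 21.1 kb upstream and with 2 motifs, was called in 10 libraries, all 6 proximal ones among them.

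Scnn1a, which encodes the alpha subunit, had 1 widely called site near a start and 7 less often called ones upstream. Site 8, 1.57 kb past a start in an intron (chr6:125322752-125323414), was called in 9 libraries. Its percentiles were 83.9 and 72.9 in proximal WENR-plus replicates 2 and 3 and 86.7, 66.9 and 37.1 in proximal WENR-minus libraries. In distal organoids it was called in 1 WENR-plus library at 63.8 and in the 3 WENR-minus libraries at 74.1, 24.9 and 69.0. Presence did not separate the media (Fisher's exact p = 0.182 for 3 WENR-plus against 6 WENR-minus libraries). The other 7 sites lay 21.1 to 36.7 kb upstream, closer to starts of Tuba3a or Ltbr, and were called in 1 to 3 libraries. Scnn1b, which encodes the beta subunit, had 3 sites in 2 libraries each, with percentiles from 21.4 to 71.8 and none within 3 kb of a start. The strongest of them, site 2, was called in proximal WENR-plus replicate 1 at 71.8 and proximal WENR-minus replicate 1 at 24.4.

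Slc12a2 encodes the basolateral cotransporter of sodium, potassium and chloride that feeds chloride secretion. Its site 4, in the gene 2.23 kb past the start and with a motif, was called in 6 proximal libraries and in 1 distal library (Fisher's exact p = 0.0152, adjusted p = 0.289). The percentiles were 82.5, 83.7 and 65.5 in proximal WENR-plus and 64.9, 81.8 and 52.0 in proximal WENR-minus libraries, and 11.6 in distal WENR-plus replicate 3. With peaks of a −log10 q of at least 5 alone, the counts were 6 and 0 libraries (Fisher's exact p = 0.00216). In lists of equal length they were 3 and 1 (Fisher's exact p = 0.545). By mean percentile, with libraries that lack a site counted as 0, site 3 at 18.1 kb upstream (36.9) was level with site 4 (36.8). Site 3 was called in 5 proximal and 3 distal libraries at percentiles of 36.6 to 84.2, and the median of its peaks, 53.3, was below the 65.5 of site 4.

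Best2 encodes bestrophin 2, an anion channel of colonic goblet cells linked to bicarbonate secretion. The one site in its window lay past the end of the gene and 1.05 kb from a start of Hook2 (chr8:84989368-84989932), and 9 libraries called it. The percentiles were 71.8, 63.1 and 19.2 in proximal WENR-plus libraries and 76.7 and 50.7 in proximal WENR-minus replicates 1 and 3. They were 20.3 in distal WENR-plus replicate 3 and 40.9, 33.5 and 52.6 in distal WENR-minus libraries. No site lay within 3 kb of a start of Best2 itself.

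Aqp8, a water channel of surface colonocytes, had a site on its start. Site 8 had its median summit 0.040 kb upstream of the start (chr7:123461933-123462451), its motif reached over the start, and 10 libraries called it. The percentiles were 91.0, 89.7 and 84.5 in proximal WENR-plus libraries and 80.4 and 78.2 in proximal WENR-minus replicates 1 and 3. In distal organoids they were 38.0, 69.1 and 56.7 in WENR-plus libraries and 64.9 and 69.0 in WENR-minus replicates 1 and 3. Replicate 2 lacked the peak in WENR-minus medium at both colon sites. All 5 proximal percentiles were above the 5 distal ones. This difference was seen after the values were read and was not tested, and a percentile depends on the length of its list, with a mean of 84.9 in proximal and 76.0 in distal libraries over the 2079 regions called in all 12. Presence was equal, with 5 libraries at each colon site (Fisher's exact p = 1). A second promoter site, site 7 at 2.68 kb upstream, was called in distal WENR-minus replicate 1 only, at percentile 9.97. Among the other 6 sites of Aqp8, site 2 was called in 10 libraries and lay 2.02 kb from a start of Lcmt1, and site 5, 9.22 kb upstream of Aqp8, was called in 8.

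Aqp4, a basolateral water channel, had the one site called for medium by the unadjusted Fisher rule. Site 2 lay 15.2 kb upstream of the nearest start of Aqp4, in an intron of the overlapping AC133525.2, and had a motif. It was called in all 6 WENR-plus libraries and in 0 WENR-minus libraries (Fisher's exact p = 0.00216, the smallest possible, adjusted p = 1). The percentiles were 86.8, 82.0 and 66.2 in proximal WENR-plus and 50.6, 36.4 and 58.0 in distal WENR-plus libraries. Among peaks with a −log10 q of at least 5 the counts were also 6 and 0. In lists of equal length they were 4 and 0 (Fisher's exact p = 0.0606). Leaving out any of the 3 replicate numbers left 4 against 0 libraries (Fisher's exact p = 0.0286). In total 11 of the 35518 regions reached the smallest p for medium.

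Site 3 of Aqp4, 16.5 kb upstream and without a motif, was called in all 6 proximal and in 0 distal libraries (Fisher's exact p = 0.00216, adjusted p = 0.114). Its peaks were weak, at percentiles of 3.37, 57.1 and 2.02 in proximal WENR-plus and 49.0, 9.76 and 26.7 in proximal WENR-minus libraries. Their summits were spread over 805 bp, and when summits were joined only within 150 bp the most widely called of the resulting regions was in 3 proximal libraries (Fisher's exact p = 0.182). No list of equal length held it. Sites 1, 4 and 5 of Aqp4 were called in 2, 1 and 3 proximal libraries and in 0 distal ones, and site 1, 1.45 kb past a start, was in proximal WENR-plus replicates 2 and 3 at percentiles 41.6 and 1.01.

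In the 37 other transport and regulator genes, 251 regions were found and 22 were called in all 12 libraries (8.76%). Of the 176 of them called in at least 2 libraries, and so tested, 13 were more often called in proximal and 2 in distal libraries at an unadjusted p under 0.05, where 4.96% and 0.282% of all regions tested were. For medium 1 was more often called in WENR-plus and 0 in WENR-minus libraries, against 0.127% and 0.0619% of all regions. Nr3c2, which encodes the aldosterone receptor that controls ENaC, was the one gene of that list with a site in all 12 libraries within 3 kb of a start (2.65 kb, median percentile 87.8).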

How the data were processed

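ChIPmentation peak lists of 12 Cdx2 libraries were used. According to the study's methods, reads were trimmed with Trimmomatic, aligned to mm10 with Bowtie2 and cleared of duplicates with SAMtools, and MACS2 called peaks separately for every library, with its input as control and a q-value limit of 0.01. The submitters' processing notes list Trimmomatic 0.39, Bowtie2 2.4.5, SAMtools 1.13 and MACS2 2.2.7.1, and the study's supplement names other versions of Bowtie2 and SAMtools. The deposited fold is the authors' ratio of pileup over local background at a summit. The lists also hold the −log10 p and −log10 q that the authors' caller gave it, and the lowest −log10 q of a list was 2.01 to 2.12. These values depend on the depth of each library and input, so fold was used as a percentile within its list. The paper's supplement gives library totals, which were not used here.

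Only peaks on the autosomes 1 to 19 and on X and Y entered, with 1-based positions. A library had a region when at least 1 bp of a peak overlapped it, and the summit of a region is the median of its peak summits. GENCODE vM21 gave gene bodies and start sites, and the GRCm38.p6 RefSeq sequence gave the bases. Groups and replicate numbers came from the sample labels. The labels give replicate numbers and not which mouse a number stands for, so p-values measure the spread between these samples. The study's methods name 3 mice for the Cdx2 ChIP-seq organoids, and 2 mice in the passage on organoid culture. The paper also reports that most variation in Cdx2 binding lay between independent mice. Named sites were those with the highest mean percentile of a gene, within 3 kb of its start, in all 12 libraries, or with an unadjusted Fisher p under 0.05. Further sites are given as values and were chosen after their values were seen. Genes of the wider list were named where a site in all 12 libraries lay within 3 kb of a start. The 10 genes, the wider list and the tests were chosen with earlier results of these data known. Python 3.11.15, pandas 2.3.3 and SciPy 1.17.1 were used. The tests were checked on simulated data that had neither the differing list lengths nor the dependence between libraries of 1 line. Alternatives were windows of 10 and 100 kb, a −log10 q of at least 5, lists cut to 5608 peaks, summits joined within 150 bp, other ranks, each replicate number left out and fits with and without the pairing of replicate numbers.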

Additional observations from a re-analysis of the deposited data

How the results depend on the processing

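The number of sites was 50 and fell to 21 with windows of 10 kb and to 21 with lists of equal length. Sites in all 12 libraries, 5 in the full lists, were 2 with windows of 10 kb, 2 at a −log10 q of at least 5 and 0 in lists of equal length. Sites more often called in proximal libraries (3) were 0 in lists of equal length, and those in distal libraries (1) were 0 at a −log10 q of at least 5. In lists of equal length the count for distal libraries was again 1, but the site was Slc26a3 site 4 and not Atp12a site 1. Sites called for medium (1) were 2 at a −log10 q of at least 5, where Slc26a3 site 2 joined with 5 WENR-minus against 0 WENR-plus libraries, and 0 in lists of equal length. Shares of all regions were not taken under these settings.

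Leaving out each replicate number in turn gave 0 to 3 sites more often called in proximal libraries (0 without replicate 1), 0 to 1 in distal libraries (0 without replicate 1 or 2) and 1 to 2 called for medium (2 without replicate 2). Of the sites called for colon site, each lost its call without at least 1 replicate number, with 4 against 4 libraries left, and Aqp4 site 2 kept its call without any of them. The lines of the colon sites did not overlap at 1 site when ranks were taken among the regions in all 12 libraries, against 2 by percentile within the list, and that site was Atp12a site 3. With the replicate block, counted as sites where all 3 pairs of lines went one way, there were 3, Atp12a site 3 added, and without replicate 1, 2 or 3 there were 3 each, with Atp12a site 3, Slc26a3 site 5 or Scnn1g site 1 as the site added. The share of all 2079 regions was not taken under these alternative rules, so no more is read from these counts. With 3 pairs the smallest exact permutation p is 0.25. The difference at Slc26a3 site 5, proximal minus distal, turned to -5.93 points with those ranks. Without single replicate numbers it ran from -9.42 (without replicate 3) to 14.6, and its medium difference, WENR-plus minus WENR-minus, from -10.8 (without replicate 2) to 19.5. The medium difference at Atp12a site 3 ran from -3.20 (without replicate 2) to 11.5. With 4 lines left the smallest p for medium is 0.125, so these fits cannot call a site. The cause of these changes was not tested.

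With the replicate block, a two-sided exact sign test over the 6 same-numbered pairs, 1 site was more often called in proximal libraries (Aqp4 site 3, p = 0.03125) and 0 in distal libraries, while Aqp4 site 2 kept its call for medium (p = 0.03125). The smallest p of this test is 0.03125, so a site called in 5 of 6 pairs stays at 0.0625. For colon site the 6 pairs are 3 pairs of lines, each entered once per medium. They are not independent, so this p is too small. With 3 pairs the smallest p is 0.25, which could call no site. Deviations from the group means in same-numbered libraries correlated at -0.0166 to 0.298 between media and at -0.0701 to 0.294 between colon sites. In 4 of the 6 pairs of each kind the best correlation was with the library of the same number. These values do not settle whether a number marks 1 mouse, and the numbers were not taken as pairing samples across groups. The medium test at the 5 sites in all 12 libraries does pair the libraries of 1 colon site and number, and with no replicate block (exact permutation test over the 12 libraries) 0 of the 5 sites were called (p = 0.0887 to 0.755). The lists hold peaks past a fixed q-value only, so a site missing from a library may lie just under that limit, and the depth of the libraries limits every count.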
